A study of Bos taurus with 12 samples.

Results

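The proteasome genes of the bovine mammary gland were followed through a 6-day feed restriction. They were taken as every gene on the array whose RefSeq transcript maps to a symbol starting with PSMA, PSMB, PSMC, PSMD, PSME, PSMF or PSMG and a digit, which gave 47 genes of the 12787 genes with a named probe, read by 94 of 43653 probes. Of these 47, 45 encode subunits or direct partners of the proteasome: 18 of the 20S core (PSMA, PSMB), 20 of the 19S cap with its assembly chaperones PSMD5, PSMD9 and PSMD10 (PSMC, PSMD), and 7 activators, inhibitors or assembly chaperones (PSME, PSMF, PSMG). The other 2, PSMC3IP and PSME3IP1, match the symbol rule but name no subunit.

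The proteasome is the protease of the cytosol and nucleus that degrades proteins tagged with ubiquitin. Its barrel, the 20S core, has outer rings of alpha subunits, which form the gate, and inner rings of beta subunits, of which PSMB5, PSMB6 and PSMB7 carry the cutting sites. The 19S cap binds the ubiquitin chain, unfolds the substrate with its ring of ATPases and removes the chain with its lid. In leukocytes, and in many cells exposed to interferon, the inducible subunits PSMB8, PSMB9 and PSMB10 take the places of PSMB5, PSMB6 and PSMB7 to form the immunoproteasome, whose peptides feed antigen presentation. In a lactating gland, this machinery works beside a very large output of milk protein.

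The samples were mammary gland biopsies of 6 multiparous, mid-lactation Holstein cows, each biopsied at day 0 of the control period (CONT), on a lactation diet given ad libitum, and again at day 6 of restriction (REST), when feed was cut to cover 50% of the requirement for net energy of lactation (NEL). The biopsied rear gland alternated, every cow went from CONT to REST, and no cow stayed on the control diet, so diet cannot be told apart from day, order or side of the udder. The labels name 6 cows while the series' design text counts 5, so all 6 were kept and each was also left out in turn. The study's methods count 6 Holstein cows and exclude 1 of them for mastitis. By that count the excluded cow would be among the 6 labelled here, but the labels do not mark it. Its part in the immune gene values below was not tested. Total RNA was hybridised to 12 one-colour arrays. Both arrays of a cow shared 1 of the 3 slides: slide 1 carried cows 1 and 2, slide 2 cows 3 and 4, and slide 3 cows 5 and 6.

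Slide 3 was dimmer than the other slides: the processed signal at the 75th percentile of an array lay between 73.2 and 117 there and between 252 and 390 elsewhere. This percentile was higher in REST than in CONT in 6 of 6 cows, by 0.30 ± 0.10 on the log2 scale (SD, n = 6, exact sign-flip permutation test, two-sided p = 0.03125). Levels below are log2 signal minus that percentile of the same array, so a level of 0 lies at the 75th percentile and the shared brightness is removed, and changes are REST minus CONT within a cow, on the log2 scale. A probe was tested where it was well above background on every array of at least 1 period. Of the 45 subunits and partners, 43 were tested; PSMB11 (the thymic catalytic subunit) was well above background on 3 of 6 CONT and 4 of 6 REST arrays, PSMD10 (gankyrin, a 19S assembly chaperone) on 4 of 6 and 5 of 6, and PSMC3IP on 0 of 12. For the labelled tissue, the milk protein genes CSN1S1, CSN3 and LALBA had levels of 9.34 or more on every array.

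In REST, signal relative to the array's 75th percentile fell for 4 standard beta subunits and 1 alpha subunit of the 20S core and for 1 subunit of the 19S lid. With cow as a block, 6 of the 43 tested subunits and partners had an adjusted p below 0.1 (limma, Benjamini-Hochberg over 19403 probes), all 6 lower in REST and 0 higher, against 16.2% of all 7930 tested genes, which split into 9.27% lower and 6.94% higher. The share of the 43, 13.95%, lies near that of all genes. By compartment, 5 calls lay among 17 tested 20S genes (PSMA3, PSMB4, PSMB5, PSMB6, PSMB7), 1 among 19 tested 19S genes (PSMD8) and 0 among 7 activators and chaperones. By probe, 10 of 86 tested probes of the family were called, against 16.0% of all tested probes. Without the cow block, so that cows were not compared with themselves, 3 of the 43 genes were called (PSMB4, PSMB5 and PSMB6, all lower), against 4.4% of all genes, of which 2.81% lower and 1.59% higher, and 3 of the 86 probes, against 4.31%. Of the 43 genes, 7 were lower in all 6 cows and 0 higher in all 6, against 10.8% and 7.49% of all tested genes. Without the filter on dim probes, 0 of the family were called, against 1.15% of all genes. With 1 cow left out 2 to 7 were called lower, where 5.64% to 16.4% of all tested genes were called in either direction. With normexp background correction in place of that of the scanner software, the split became 5 lower and 3 higher (PSMB8, PSME1 and PSME2). That setting called 17.67% of all tested genes, and 48.97% of those calls were lower, against 57.2% in the main setting.

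**Figure D1:**
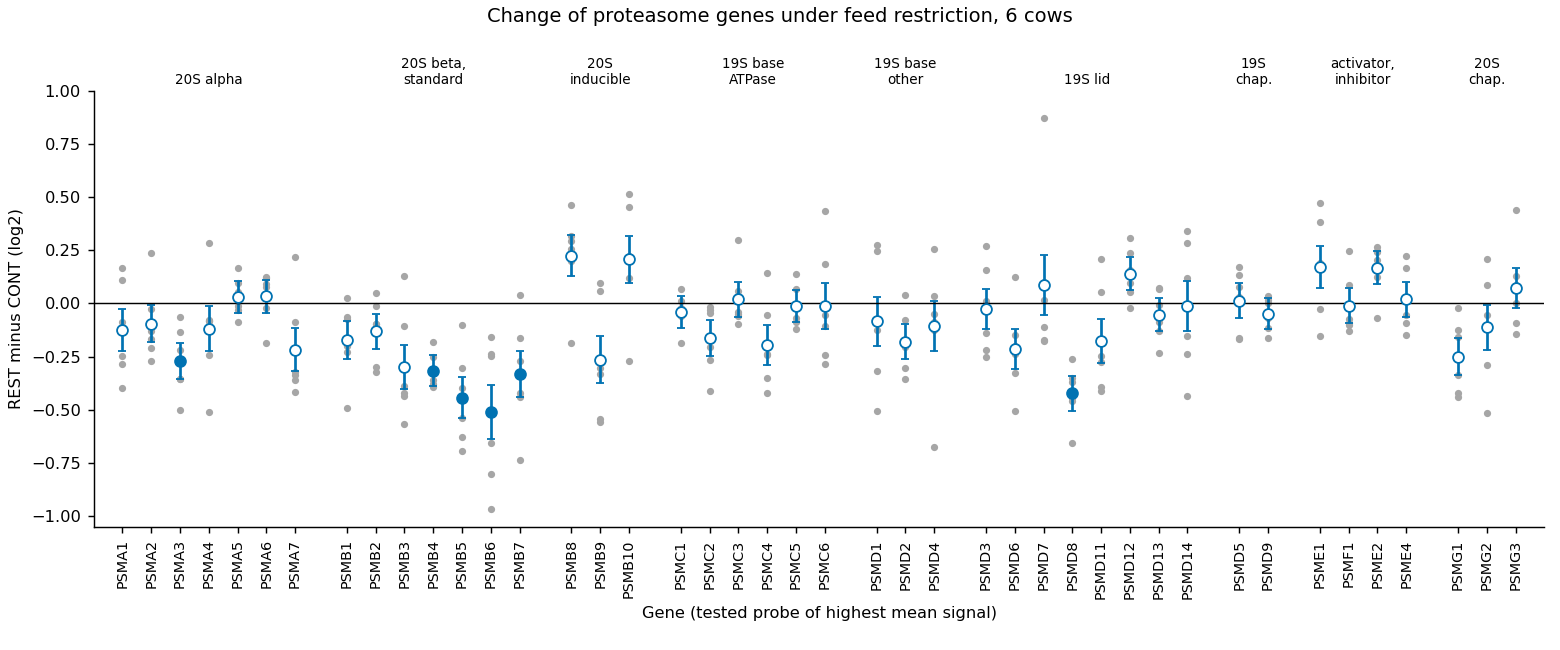
Change from CONT to REST (log2) of the 43 tested proteasome subunits and partners, each by its tested probe of highest mean signal; grey points are the 6 cows, circles the mean change with its limma standard error, and filled circles the genes with an adjusted p below 0.1. The 6 filled circles all lie below 0, and 4 of them are among the 7 standard 20S beta subunits.

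The largest mean changes of the family were in the standard catalytic subunits PSMB6 and PSMB5. PSMB6, the caspase-like site (beta 1), had a lowest, median and highest level of 3.05, 3.23 and 3.39 in CONT and of 2.24, 2.81 and 3.07 in REST. The periods overlapped only through cow 6 in REST, whose 3.07 lay just above the lowest CONT level, and every cow was lower in REST. Its mean change was −0.51 (SE 0.125, n = 6, limma adjusted p = 0.0433), so that signal fell by 29.8%, and it ranged from −0.97 in cow 4 to −0.16 in cow 3.

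PSMB5, the chymotrypsin-like site (beta 5) and the target of clinical proteasome inhibitors, had levels of 3.52, 3.999 and 4.10 in CONT and of 3.36, 3.45 and 3.70 in REST (lowest, median, highest). Cow 3 held the lowest CONT level and cow 6 the highest REST level, and all 6 cows fell. The mean change was −0.45 (SE 0.0965, limma adjusted p = 0.0326), with −0.70 in cow 1 and −0.10 in cow 3 at the ends. PSMB7, the trypsin-like site (beta 2), lay at 4.48, 4.71 and 4.91 in CONT and at 4.12, 4.45 and 4.53 in REST. It fell in 5 of 6 cows and was 0.04 higher in cow 5, with a mean change of −0.33 (SE 0.107, limma adjusted p = 0.0895). The call was lost with quantile normalization (−0.24, limma adjusted p = 0.167), with normexp (−0.23, limma adjusted p = 0.206) and without any of cows 1, 2, 3, 4 or 6. Its second tested probe changed by −0.27 and was not called (limma adjusted p = 0.121).

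Of the 4 non-catalytic members of the beta ring, 1 was called. PSMB4 (beta 7), which locks the beta rings together late in assembly, was at 4.65, 4.73 and 4.92 in CONT and at 4.30, 4.47 and 4.53 in REST, so that every REST level lay below every CONT level. This was the only one of the 43 genes whose periods did not overlap, against 2.27% of all tested genes. Its change was −0.32 (SE 0.0731, limma adjusted p = 0.0376), between −0.39 and −0.18 in the 6 cows, and its second probe gave −0.34 (limma adjusted p = 0.0468). PSMB3 (beta 3) changed by −0.30 (SE 0.105) and missed the threshold (limma adjusted p = 0.110), with a value of +0.13 in cow 5 against −0.57 to −0.11 in the other cows. PSMB1 (beta 6) changed by −0.17 (SE 0.0885, limma adjusted p = 0.241) and was lower in 5 of 6 cows. PSMB2 (beta 4), looked at only after its values were seen, changed by −0.13 on its brightest probe (limma adjusted p = 0.339) and by −0.22 on its other probe (limma adjusted p = 0.0849). Taken as a list, all 7 standard beta subunits had a mean below 0 and 4 were called lower, against 9.27% of all tested genes, with a median change of −0.32 beside −0.01 for all tested genes. Their median was below 0 in each of the 6 cows, from −0.49 in cow 4 to −0.11 in cow 3, and within each slide, at −0.41, −0.32 and −0.22 on slides 1, 2 and 3.

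In the alpha ring, PSMA3 (alpha 7) was the single call, at 1.17, 1.48 and 1.66 in CONT and 0.67, 1.19 and 1.41 in REST. The 2 sets of levels overlapped broadly, but each cow was lower in REST, by 0.06 to 0.50, with a mean of −0.27 (SE 0.0847, limma adjusted p = 0.083). Without the cow block, its limma adjusted p was 0.332, and the call was also lost without any of cows 1, 2, 3, 4 or 6. PSMA7 (alpha 4) changed by −0.22 (SE 0.101, limma adjusted p = 0.202), with +0.22 in cow 3 against −0.42 to −0.09 elsewhere. PSMA1 (alpha 6) changed by −0.12 (limma adjusted p = 0.439). The other 4 tested alpha subunits lay between −0.12 and 0.03, and the ring's median change was −0.12, below 0 in 4 of 6 cows.

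The inducible catalytic subunits, which occupy the same places in the core as PSMB5, PSMB6 and PSMB7, held no call in either direction. PSMB8 (beta 5i) was at 2.30, 2.62 and 2.84 in CONT and 2.22, 2.91 and 3.26 in REST. It was higher in 5 of 6 cows and lower in cow 3, with a mean of +0.22 that was not called (SE 0.096, limma adjusted p = 0.170, and 0.0844 without cow 3); its 3 tested probes all had a mean above 0, between 0.10 and 0.28. PSMB10 (beta 2i) ran from −1.06 to 0.13 in CONT and from −0.54 to 0.58 in REST, was likewise higher in every cow but cow 3, and averaged +0.21 (SE 0.11, limma adjusted p = 0.259).

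PSMB9 (beta 1i) differed from both. Its level varied far more between cows than between periods, from 2.58 in cow 5 to 5.27 in cow 1 in CONT and from 2.63 to 4.71 in the same cows in REST. It was lower in 4 cows, by 0.31 to 0.56, and higher by 0.06 and 0.10 in cows 5 and 6, the 2 cows of the dim slide. The mean was −0.26 (SE 0.111, limma adjusted p = 0.164). Without slide 3 it was −0.44 on the same probe and passed the threshold (limma adjusted p = 0.0788). Of its 3 tested probes, 2 had a mean below 0 and the dimmest a mean of +0.06. In the cattle reference annotation (ARS-UCD2.0), PSMB8, TAP1 and PSMB9 are direct neighbours.

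**Figure D2:**
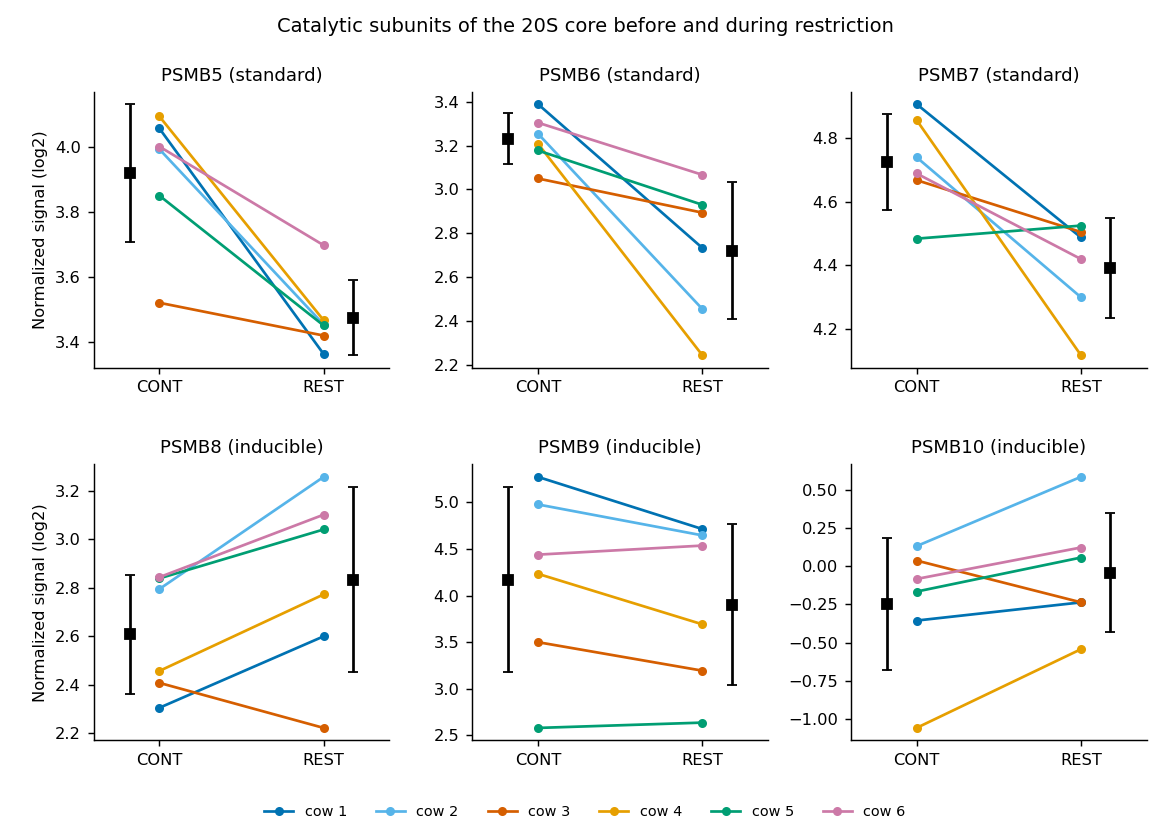
Levels (log2 signal minus the array's 75th percentile) of the 3 standard catalytic subunits in the upper row and of the inducible subunit of the same place below each; lines join CONT and REST of each of the 6 cows, and squares with bars are means with SD. Lines fall in all 6 cows for PSMB5 and PSMB6 and in 5 of 6 for PSMB7, while 5 of 6 rise for PSMB8 and PSMB10; each panel has its own level axis, which does not start at 0.

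The unequal change of each pair was tested within cows, as the change of the inducible subunit minus that of the standard subunit, over 3 pairs. For PSMB8 against PSMB5 the difference was 0.67 ± 0.42 (SD, n = 6), above 0 in 5 of 6 cows (exact sign-flip permutation test, two-sided p = 0.0625, adjusted over 3 pairs p = 0.09375). For PSMB10 against PSMB7 it was 0.54 ± 0.49, above 0 in 5 of 6 cows (exact permutation p = 0.0625, adjusted p = 0.09375). For PSMB9 against PSMB6 it was 0.25 ± 0.23, above 0 in 5 of 6 cows (exact permutation p = 0.09375, adjusted p = 0.09375). No pair was below 0.05, and the smallest p that 6 cows allow is 0.03125. The exception was cow 3 in each pair, at −0.08, −0.11 and −0.15 in the order given. Without cow 3, picked here because it was the exception, the differences were 0.82, 0.67 and 0.33. The other 5 cows all lay above 0, so that this choice fixed each exact permutation p at 0.0625, the smallest that 5 cows can give. Those p-values are therefore no further test of the pairs.

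The 19S cap showed a single call, in its lid. PSMD8 (RPN12), which joins the lid last, was at 4.84, 5.07 and 5.23 in CONT and at 4.18, 4.66 and 4.97 in REST. All 6 cows fell, by 0.26 to 0.66, and the periods overlapped only through the REST levels of cows 1 and 6, at 4.84 and 4.97, and the CONT level of cow 2. The mean change of −0.42 (SE 0.0801) had the smallest adjusted p of the family (limma adjusted p = 0.0219), and 2 of its 3 probes were called, the other giving −0.21 (limma adjusted p = 0.117). It was the only one of the 6 called genes that was also called whichever cow was left out, and without the cow block its limma adjusted p was 0.108. PSMD6 (RPN7) and PSMD11 (RPN6), lid scaffold subunits, changed by −0.22 (limma adjusted p = 0.177) and −0.18 (limma adjusted p = 0.301). In the base, the ATPase PSMC4 changed by −0.19 (limma adjusted p = 0.215) and PSMD2 (RPN1), a docking site for ubiquitin shuttles, by −0.18 (limma adjusted p = 0.192). Of the 6 ATPases 0 were called, with a median of −0.03. The 19 tested 19S genes include the assembly chaperones PSMD5 and PSMD9. Of these 19 genes, 15 had a mean below 0, and the median change was −0.05, from −0.18 in cow 1 to 0.04 in cow 3.

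**Figure D3:**
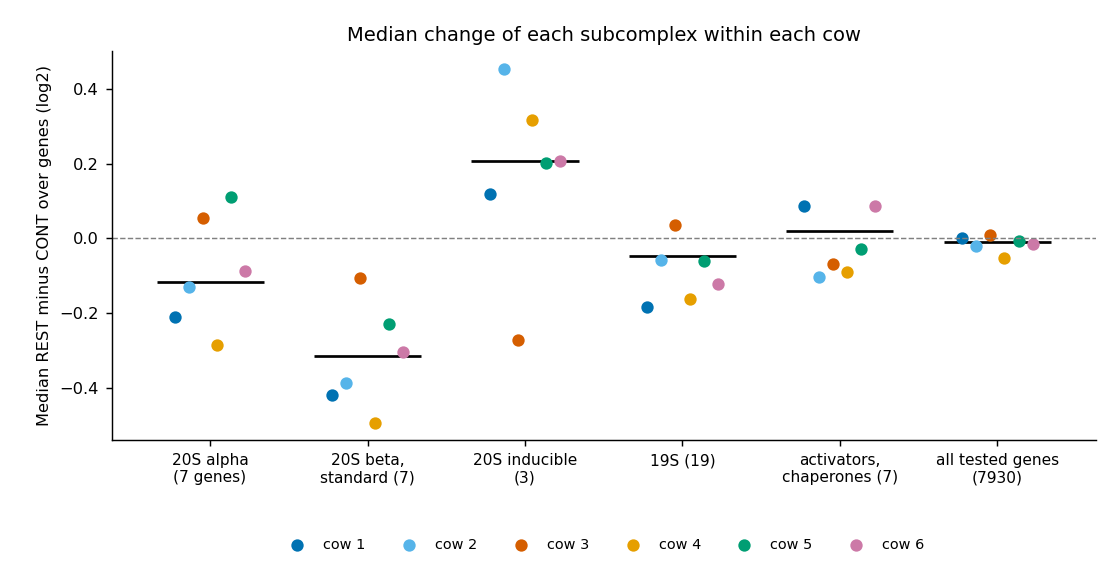
Median change from CONT to REST (log2) over the tested genes of each proteasome class within each of the 6 cows, with the median of the mean changes as a bar and all 7930 tested genes at the right. The median of the standard beta subunits is below 0 in each of the 6 cows, from −0.49 to −0.11, while the 3 inducible subunits have a median above 0 in every cow but cow 3.

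Activators and assembly chaperones held no call. PSME1 and PSME2, the interferon-inducible PA28 subunits that open the core and often accompany the immunoproteasome, changed by +0.17 each (SE 0.0998 and 0.0787, limma adjusted p = 0.296 and 0.202). On these brightest probes, PSME2 was higher in every cow but cow 3, and PSME1 in 4 of 6. The other PSME1 probe changed by +0.23, was higher in all 6 cows and was not called (limma adjusted p = 0.126). PSME4 (PA200, a nuclear activator) changed by +0.02 and PSMF1 (PI31, first described as an inhibitor of the core) by −0.01, both far from the threshold (limma adjusted p = 0.905 and 0.949). Among the chaperones that build the alpha ring, PSMG1 (PAC1) was lower in all 6 cows, from 3.42, 3.53 and 3.70 in CONT to 3.15, 3.27 and 3.50 in REST. Its change of −0.25 on the brightest probe just missed the threshold (SE 0.0867, limma adjusted p = 0.106), and its other probe passed at −0.33 (limma adjusted p = 0.0609). Its ring partner PSMG2 (PAC2) changed by −0.11 (limma adjusted p = 0.527) and PSMG3 by +0.07 (limma adjusted p = 0.657). Counting a gene as called when any of its probes was, 8 of the 43 were called lower, PSMB2 and PSMG1 being the additions, against 20.5% of all genes. PSME3IP1, no subunit, changed by +0.14 (limma adjusted p = 0.289).

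Cows differed in how far the core moved. The median over the 17 tested 20S genes was −0.36, −0.18, −0.10, −0.35, 0.06 and −0.17 in cows 1 to 6. Cow 5 was the exception, with 7 of 17 genes lower against 13 to 15 in the other cows. Averaged within slides, the median was below 0 on each, at −0.24, −0.26 and −0.11 on slides 1 to 3. Cow 3 changed least in PSMB5 and PSMB6 and, on each gene's brightest probe, went the other way in PSMB8, PSMB10, PSME1 and PSME2.

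Around the proteasome itself, a single gene of the 4 lists that follow was called, and none of the interferon list after them, against 16.2% of all tested genes. Of 11 tested proteasome-associated genes, among them the ubiquitin receptor ADRM1 and the deubiquitinases USP14 and UCHL5, 0 were called, and 7 had a mean below 0. POMP, the maturation factor on which the beta ring assembles, was looked at after its values were seen, being lower in all 6 cows; it changed by −0.21 (limma adjusted p = 0.120). Of 6 tested genes that control proteasome gene transcription, 0 were called, and NFE2L1, the factor that raises proteasome genes when the particle is inhibited, changed by −0.05 (limma adjusted p = 0.718). None of the 6 ubiquitin and ubiquitin-activating genes was called, within −0.10 to 0.10. Of 5 tested shuttles, SQSTM1 (p62), the autophagy receptor that also binds the proteasome, was called higher. It lay at 2.02, 2.71 and 3.94 in CONT and at 2.40, 3.12 and 3.97 in REST, higher in all 6 cows with a mean of +0.37 (SE 0.117, limma adjusted p = 0.0834). SQSTM1 had 3 tested probes, between +0.30 and +0.41, of which 1 was called. Its levels differed more between cows than between periods, and without the cow block its limma adjusted p was 0.671.

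Of 6 tested interferon and peptide-loading genes, which usually accompany the immunoproteasome, 0 were called, at a median change of +0.16. B2M, the light chain of MHC class I, changed by +0.24 on its brightest probe (limma adjusted p = 0.164), while its 4 tested probes lay between +0.24 and +0.40 and 1 of them was called higher. Of the others, IRF1 changed by +0.36 (limma adjusted p = 0.207) and the peptide transporter TAP1 by −0.11 on its brightest probe (limma adjusted p = 0.549), with 1 of its 3 tested probes below 0 and the highest at +0.27. The pattern was uneven between cows: in cow 2 all 6 genes had a change above 0, in cow 1 and in cow 3 only 2 of 6.

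**Figure D4:**
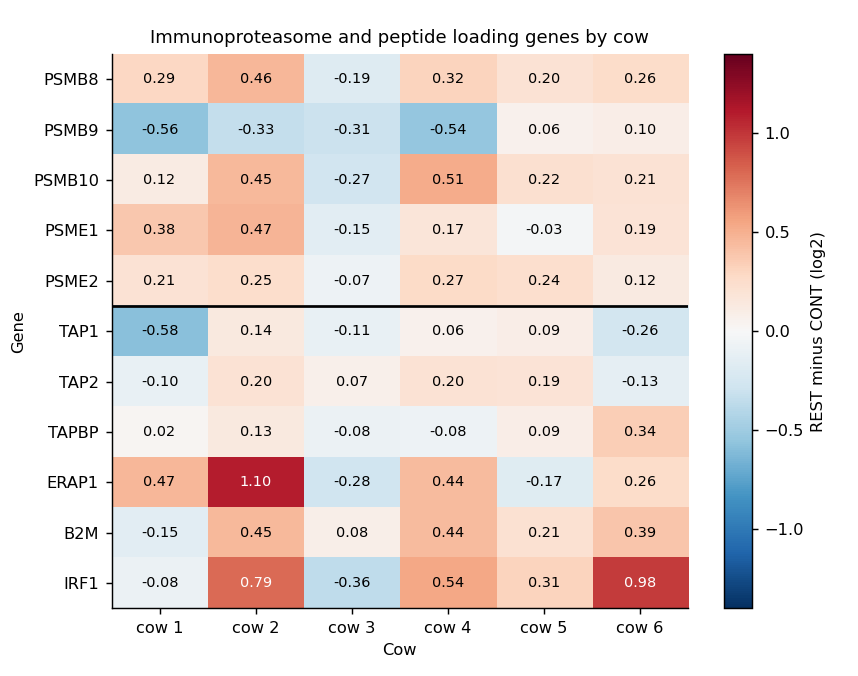
Change from CONT to REST (log2; red higher, blue lower in REST) of the inducible proteasome genes and PA28 above the line and of 6 interferon and peptide-loading genes below it, for each of the 6 cows. Cow 3 is at or below 0 for all 5 genes above the line, PSMB9 is lower in cows 1 to 4 while PSMB8 and PSMB10 are higher in cows 1, 2 and 4, and the largest value shown is that of ERAP1 in cow 2.

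A biopsy holds several cell types, and in bulk tissue fewer cells of a type cannot be told apart from less RNA per cell. Immunoproteasome genes are high in leukocytes. Of 14 leukocyte markers, 12 were tested and 2 were called higher, CD3E by 0.35 (limma adjusted p = 0.0781) and CD8A by 0.45 (limma adjusted p = 0.0349; well above background on 5 of 6 CONT arrays, so that it entered the test only through REST, where it was higher), with 0 lower, 6 of 12 means below 0 and a median of +0.06, a share of 16.67% beside 16.2% of all tested genes. The T-cell markers CD4 and CD2 changed by −0.22 and −0.17, each lower in 5 of 6 cows and not called (limma adjusted p = 0.153 and 0.276). The summed level of the tested leukocyte markers ranged from 5.02 to 5.35 in CONT and from 5.13 to 5.43 in REST. The pan-leukocyte PTPRC changed by −0.15 on its brightest probe (limma adjusted p = 0.348), with 1 of its 3 tested probes below 0 and the highest at +0.33. MS4A1 and ITGAM were well above background on no array. Beside the lower beta subunits, 9 markers of the secretory epithelium were tested. CSN1S1 and CSN3 fell by 0.26 and 0.28 and KRT8 and KRT18 rose by 0.72 and 0.52 (limma adjusted p between 0.0089 and 0.0912). CSN1S2, LALBA and PAEP changed by −0.18, −0.20 and −0.17 and were not called on their brightest probes, although 4 of 5 CSN1S2 probes and 1 of 2 LALBA probes were called lower. Each tested milk protein gene was lower in all 6 cows. EPCAM changed by +0.33 (limma adjusted p = 0.115), and 1 of the 3 tested KRT8 probes was below 0, at −0.14. The summed level ranged from 12.1 to 12.45 in CONT and 11.8 to 12.18 in REST. The epithelial transcription factor ELF5 changed by −0.05. Of 4 endothelial markers VWF and CLDN5 rose by 0.54 and 0.74, with a summed level of 3.43 to 4.29 in CONT and 4.30 to 4.83 in REST. Of 5 myoepithelial markers ACTA2 and CNN1 fell by 0.38 and 0.53 while KRT5 and MYH11 changed by +0.25 and +0.10 and were not called, with a summed level of 6.57 to 7.55 and of 6.43 to 7.43. The 5 fibroblast markers held 0 calls, with 4 means below 0 and a median of −0.41; COL1A1 changed by −0.54 (limma adjusted p = 0.125), and 1 of its 3 tested probes was called lower. The muscle gene CKM fell by 0.36 (limma adjusted p = 0.0703) and was lower in 5 of 6 cows. The muscle gene ACTA1 changed by +0.02 (limma adjusted p = 0.899), and MYH2 was not tested. The erythrocyte gene HBA changed by −0.33 (limma adjusted p = 0.108) and was lower in 5 of 6 cows. The adipocyte gene FABP4 fell by 0.35 (limma adjusted p = 0.0447), while PLIN1 was well above background on no array. The part of these cell types in the proteasome changes was not tested.

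**Figure D5:**
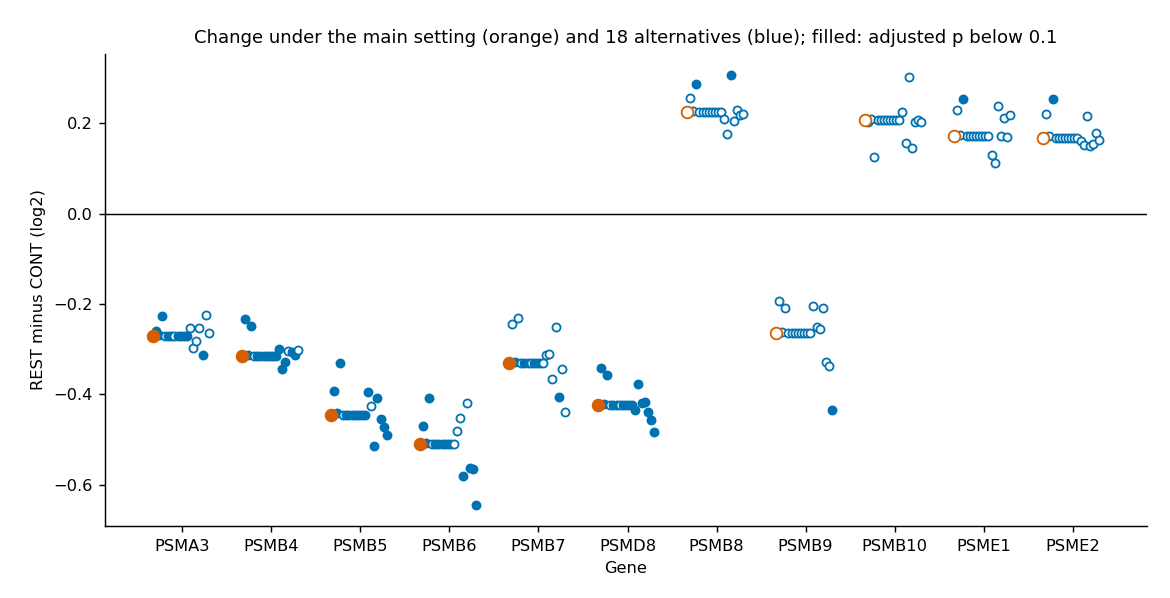
Mean change from CONT to REST (log2) of the 6 called genes, the 3 inducible subunits and PA28 (PSME1, PSME2), with the reported setting first in orange and 18 processing alternatives in blue; filled circles have an adjusted p below 0.1. Scalings and left-out cows move the mean change and turn no sign, while filters, blocks and moderation move only the call, which is lost most often for PSMA3 and PSMB7 among the called genes.

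All 6 called genes kept their direction under quantile, median and normexp scaling and with each cow, or slide 3, left out; the other alternatives alter the test and not, or hardly, the mean change. Their calls held unequally over 18 alternatives: PSMB5 and PSMD8 were called under 16, PSMB4 under 15, PSMB6 under 13, PSMA3 under 10 and PSMB7 under 7. PSMB4 lost its call without cow 4, PSMB5 without cow 2, and PSMB6 without cows 1, 2 or 4, at a limma adjusted p between 0.109 and 0.13 for the last.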

How the data were processed

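Cow mammary RNA (50 ng per sample) was labelled with Cy3 and hybridised to bovine 4×44K Agilent arrays. The deposited values are the scanner intensities of each array, which the authors extracted with Agilent Feature Extraction (11.0.1.1 per the file headers, whose grid annotation is that of UMD 3.1); the column used was the processed signal, already background-subtracted by that software. The deposited series table held the same values in all 45220 rows of each array. Depth does not apply to arrays, so their number limits the precision.

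Probes were named through the RefSeq transcript in the files and the ARS-UCD2.0 gene table, which matched 62.2% of the 43653 probes; no probe was matched by this rule for PSMA8, PSME3 and PSMG4. Control spots and spots marked by the software (1 to 13 per array) were left out. Log2 processed signal minus the 75th percentile of each array was fitted with limma 3.58.1 (R 4.3.3), with period and cow in the model and Benjamini-Hochberg adjustment over 19403 probes, called at 0.1. The study's methods name moderated tests at that threshold and not whether cows were paired; pairing comes from the animal named in the labels, and deviations from the period means correlated at 0.356 to 0.574 within cows and at −0.326 to 0.135 between cows. A gene was represented by its tested probe of highest mean signal, kept under the alternatives where it was tested. Probes of 28 genes with more than 1 tested probe disagreed in sign for 6. The fit was tested on simulated data.

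The members, gene lists and tests were chosen with earlier results of these data known. Named were the catalytic subunits of both kinds, activators and PSMG chaperones, and in each other class the called genes and the 2 uncalled genes of largest change; in the pathway lists, called genes; other named genes were chosen after their values were seen or state a list's range. The p-values of catalytic pairs come from exact two-sided sign-flip permutation tests. Alternatives were quantile, median and normexp scaling (on the median spot signal, since the mean signal was not used here), filters, blocks, variance moderation, probe choice and each cow left out. A gene of the interferon list is not reported here.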

Additional observations from a re-analysis of the deposited data

Results flagged for a closer look

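In 88 sets of 6 levels (44 genes, 2 periods), 6 held a level that stood apart from the other 5 by Dixon's test at the 95% level, where about 1 in 20 sets, 4.4 here, would by chance. PSMA1 was at 3.379 in cow 6 in CONT, against 2.915 to 3.075 in the other cows. PSMA7 was at 3.418 in cow 3 in CONT, against 3.885 to 4.041, and at 3.953 in cow 6 in REST, against 3.466 to 3.638. PSMB5, which fell in all cows, was at 3.699 in cow 6 in REST, against 3.364 to 3.468. PSMF1 was at 2.083 in cow 5 in CONT, against 1.84 to 1.918, and PSMG3 at 1.268 in cow 1 in REST, against 0.748 to 0.883. The low CONT level of PSMA7 in cow 3 goes with the single positive change of that gene (0.22).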

How the results depend on the processing

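Without the replicate block, 836 probes were called in place of 3104, and 3 family members lower in place of 6; with the slide as the block instead, 1898 probes and the same 6 members, and without variance moderation 1852 probes and 4 members. Without a filter on dim probes, 388 probes, 1.15% of all genes and 0 members were called. With normexp, 3 members were called higher (PSMB8, PSME1, PSME2) where the main setting called 0. Over all tested genes, normexp called 17.67% against 16.2%, and 48.97% of its calls were lower against 57.2%. Leaving out each cow in turn gave 1045 to 3252 probes and 5.64% to 16.4% of all tested genes, with 2 to 7 members lower and 0 to 1 higher. The counts of members lower were 3 without cow 1, 2 without cow 2 (1045 probes) and 2 without cow 4 (1205 probes), and PSMB8 was the member called higher without cow 3. Within slide 1, the 19S median was −0.14 and that of activators and chaperones 0.15, against −0.05 and 0.02 overall. The main counts were 6 members lower and 0 higher. The median over the 20S genes and the differences within the 3 catalytic pairs kept their sign under the other scalings, within slides and with each cow left out, the alternatives that can move them, but not their size: with normexp the 20S median was −0.08 in place of −0.17, the 19S median 0.00 in place of −0.05 and the PSMB10 difference 0.36 in place of 0.54, and with quantile normalization the 20S median was −0.12. With a cow left out, the differences within pairs had exact permutation p-values that 5 cows cannot bring below 0.0625. Leaving out slide 3 (cows 5 and 6), chosen after seeing the data, kept PSMB5, PSMB6 and PSMD8, lost PSMA3, PSMB4 and PSMB7, and added PSMB9 (lower, limma adjusted p = 0.0788). The cause of these shifts was not tested. Slide 3 had 41.9% to 48.0% of spots well above background against 61.8% to 67.9% on the other slides, which limits the dimmest genes.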
